A study of Mus musculus with 6 samples.

Results

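The genes described here belong to the transforming growth factor beta (TGF-beta) pathway: the ligands Tgfb1, Tgfb2 and Tgfb3, the activin subunit Inhba, the latency protein Ltbp1, the receptors Tgfbr1 and Tgfbr2, and the intracellular mediators Smad3 and Smad7. They were chosen by name, with earlier results of these data known, and these 9 genes were found among the 30315 genes listed in the RNA-Seq table. Mouse primary renal tubular epithelial cells (TECs) from kidneys of the C57BL/6 strain received either an siRNA against Sox9 (siSox9, n = 3) or the control siRNA siNC (n = 3), 12 h before injury. Both groups then went through hypoxia/reoxygenation (H/R), a culture model of ischemia: 6 h in glucose-free medium at 1.0% O2, followed by 18 h of recovery in complete medium. No uninjured library was compared here, so every difference is between siSox9 and siNC within injured cells. The labels give neither the age of the mice nor whether the 3 libraries of a group came from separate cultures or animals, and p-values therefore measure only the spread between these libraries.

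TGF-beta ligands are secreted as latent dimers that latency proteins such as LTBP1 tether to the matrix until integrins, proteases or thrombospondin release them. The free ligand binds the type II receptor, which recruits and activates the type I receptor, and this phosphorylates SMAD2 and SMAD3. These enter the nucleus with SMAD4 and switch genes on or off, among them that of the inhibitory SMAD7, which closes a feedback loop. Activins, dimers of the product of Inhba, use their own receptors but the same SMAD2 and SMAD3. In the injured kidney the pathway is best known for growth arrest of tubular cells and for matrix deposition during fibrosis.

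The 250 bases before the start site of 4 of these genes are given below, because Tgfbr2, Smad3 and Ltbp1 were higher and Tgfb2 lower with siSox9. Sequences are from RefSeq (GRCm38.p6), which held entries for 7 of the 9 genes, and run 5′ to 3′ on the strand of the gene. Capitals mark the letters CAGAC, a SMAD-binding box, searched on both strands (GTCTG on the other one). The letters ACAAT, the core of the SOX motif (ATTGT on the other strand), were searched in the same way, and no match of the 2 motifs overlapped another.
Tgfb2 (minus strand, chr1:186705990-186706239): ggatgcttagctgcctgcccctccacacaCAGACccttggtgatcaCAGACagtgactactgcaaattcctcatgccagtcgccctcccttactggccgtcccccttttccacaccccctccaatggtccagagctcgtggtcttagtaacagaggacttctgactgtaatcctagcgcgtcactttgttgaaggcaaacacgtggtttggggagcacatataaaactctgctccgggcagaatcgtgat
Tgfbr2 (minus strand, chr9:116175364-116175613): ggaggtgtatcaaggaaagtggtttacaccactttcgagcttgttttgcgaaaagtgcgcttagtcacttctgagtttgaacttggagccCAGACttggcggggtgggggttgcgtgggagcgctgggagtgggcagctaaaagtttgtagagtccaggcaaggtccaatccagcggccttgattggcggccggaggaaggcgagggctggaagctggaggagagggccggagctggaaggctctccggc
Smad3 (minus strand, chr9:63757995-63758244): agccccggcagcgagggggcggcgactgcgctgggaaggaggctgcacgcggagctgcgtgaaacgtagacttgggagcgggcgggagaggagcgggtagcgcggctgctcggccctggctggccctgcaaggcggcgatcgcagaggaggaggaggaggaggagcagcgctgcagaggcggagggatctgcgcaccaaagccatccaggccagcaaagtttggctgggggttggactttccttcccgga
Ltbp1 (plus strand, chr17:75005279-75005528): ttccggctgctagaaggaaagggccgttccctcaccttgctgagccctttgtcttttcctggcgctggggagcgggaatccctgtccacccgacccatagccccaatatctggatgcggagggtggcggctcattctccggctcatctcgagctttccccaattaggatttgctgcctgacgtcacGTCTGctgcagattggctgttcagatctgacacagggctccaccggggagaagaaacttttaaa

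Tgfb2 held 2 SMAD boxes, with first bases at -221 and -204 from the start site. Tgfbr2 held 1, at -160, and Ltbp1 held 1, at -64, while these letters were not in the Smad3 window. None of the 4 windows held the SOX core letters. The window before a second RefSeq start of Ltbp1, chr17:75178531-75178780, held 2 SMAD boxes and 1 SOX core at -73. That of Inhba held 1 SOX core at -204. The called genes themselves lie, in the table's GRCm38 positions, at chr1:186622792-186705989 (Tgfb2, minus strand), chr12:86056745-86079041 (Tgfb3, minus strand), chr9:116084293-116175360 (Tgfbr2, minus strand), chr9:63646767-63757994 (Smad3, minus strand) and chr17:75005568-75392512 (Ltbp1, plus strand). In all 32851 mouse promoter windows of the same length, 42.2% held the SMAD box and 27.7% the SOX core, so a match is common and only describes the letters.

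The siRNA target was measured first. Sox9, a transcription factor that marks tubular cells under repair, was at 8.93, 8.61 and 9.07 FPKM (fragments scaled by exon length and library size) in the siSox9 libraries and at 25.7, 26.5 and 25.6 FPKM in the siNC libraries. The level with siSox9 was 34.2% of that with siNC, and the log2 fold change was -1.45 (SE 0.03; limma, adjusted p = 7.03e-06). Fold changes here and throughout are differences of log2(FPKM + 1), siSox9 minus siNC, which understate changes of low genes. A gene was called where the Benjamini-Hochberg adjusted p of limma was under 0.05 over the 12009 genes tested, those that averaged 1 FPKM or more.

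All 9 pathway genes passed that filter, with group means between 10.0 and 57.5 FPKM. Ltbp1, Smad3 and Tgfbr2 rose with siSox9 and Tgfb2 and Tgfb3 fell, while Tgfb1, Tgfbr1, Smad7 and Inhba did not pass the test. The 5 called changes were small, with log2 fold changes between -0.23 and 0.34. Calls were frequent in these data: 30.4% of all tested genes were called, 12.8% higher and 17.6% lower, and in 46.3% the 3 values of one group lay wholly above or below those of the other. Of the 9 genes, 5 were called and the same 5 had groups that did not overlap; without siSox9 replicate 2 or siSox9 replicate 3 the number called was 3. Among the 7495 genes that averaged 5 FPKM or more, as all 9 did, 36.1% were called when tested alone. The median log2 fold change was 0.06 over the 9 genes and -0.01 over all tested genes. The split of all calls moved with the scaling, from 42.0% higher (1532 of 3650 called genes) to 52.6% higher after each library was centred on its median, while no scaling moved the median of all genes by over 0.1.

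**Figure D1:**
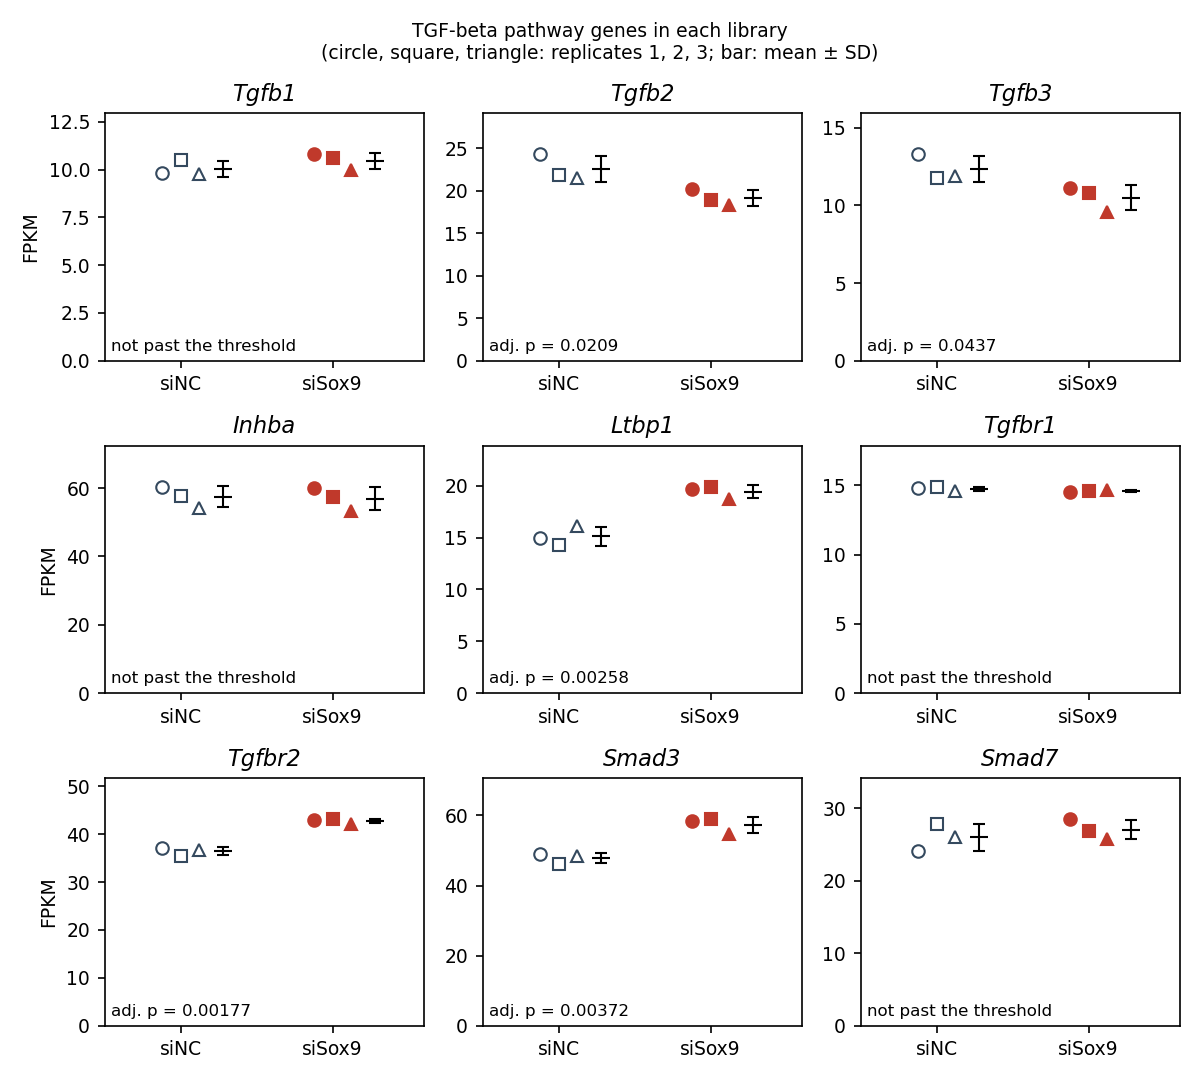
FPKM of the 9 TGF-beta pathway genes in each library (vertical axes from 0, in FPKM; open symbols siNC, filled symbols siSox9; circle, square and triangle for replicates 1, 2 and 3), with the mean ± SD of each group beside them (n = 3). Filled and open symbols are apart for Tgfb2, Tgfb3, Ltbp1, Tgfbr2 and Smad3, and mixed for Tgfb1, Inhba, Tgfbr1 and Smad7.

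Among the 3 TGF-beta ligands, Tgfb2 had the highest FPKM and the lowest adjusted p. FPKM values match a scaling by the merged exons of all transcripts of a gene, whichever of them are present. An order of genes by FPKM, here and below, is therefore not established as an order of transcript levels. Tgfb2 was at 20.2, 18.9 and 18.3 FPKM with siSox9 and at 24.3, 21.9 and 21.5 FPKM with siNC. Every siSox9 library lay below every siNC library, and the mean was 84.7% of that with siNC. The log2 fold change was -0.23 (SE 0.06, 95% CI -0.36 to -0.10; limma, adjusted p = 0.0209). This call was lost without siSox9 replicate 2 (limma, adjusted p = 0.0697) and without siSox9 replicate 3 (0.066), and also on TPM values, which bring every library to the same sum (0.11), with no filter on low genes (0.0651) and in a linear model without limma's moderation of the variance (0.0852). Its exons share 124 bases with Gm29491 on the opposite strand, and the strand setting of the counting is not given in the sources used here.

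Tgfb3 fell by a similar amount. It was at 11.1, 10.8 and 9.59 FPKM with siSox9 and at 13.3, 11.8 and 11.9 FPKM with siNC, again without overlap. Its log2 fold change was -0.21 (SE 0.06, 95% CI -0.37 to -0.06; limma, adjusted p = 0.0437). The call is close to the threshold and held when siSox9 replicate 1 was left out (limma, adjusted p = 0.048). It was lost without siSox9 replicate 2 (0.0843), siSox9 replicate 3 (0.103), siNC replicate 1 (0.0924), siNC replicate 2 (0.0592) or siNC replicate 3 (0.0772), on TPM values (0.155), after centring on the median (0.0599), after quantile normalization (0.0566), with no filter (0.122) and without that moderation (0.134). Its exons share 420 bases with Gm48008 and Gm37804 on the opposite strand.

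Tgfb1, the ligand most often studied in renal fibrosis, did not pass the test. Its values were 10.8, 10.6 and 9.99 FPKM with siSox9 and 9.83, 10.5 and 9.78 FPKM with siNC, and the groups overlapped. The log2 fold change was 0.06 (95% CI -0.05 to 0.16; limma, adjusted p = 0.381). Its share of the summed FPKM of the 3 ligands differed between the groups. Tgfb1 made up 25.7%, 26.4% and 26.4% of that sum with siSox9 and 20.8%, 23.8% and 22.6% with siNC. That sum was 40.1 ± 2.14 FPKM (SD, n = 3) with siSox9 and 44.9 ± 2.17 FPKM with siNC, without overlap. Tgfb2 took 47.7% ± 0.707 of it with siSox9 and 50.2% ± 0.929 with siNC.

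Inhba encodes the subunit of activin A and had, with Smad3, the highest FPKM of the 9 genes. It was at 60.1, 57.5 and 53.3 FPKM with siSox9 and at 60.4, 57.8 and 54.2 FPKM with siNC. The libraries of each group spread over the same range. The log2 fold change was -0.01 (95% CI -0.14 to 0.12; limma, adjusted p = 0.882), and its sign turned on TPM values and after centring on the median.

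Ltbp1 encodes the protein that binds latent TGF-beta and holds it in the matrix, and it had the largest change of the 9 genes. It was at 19.7, 19.9 and 18.7 FPKM with siSox9 and at 15.0, 14.3 and 16.1 FPKM with siNC. The lowest siSox9 library was above the highest siNC library, and the mean was 128% of that with siNC. The change was 0.34 on the log2 scale (SE 0.05, 95% CI 0.23 to 0.46; limma, adjusted p = 0.00258). Without any 1 of the 6 libraries it stayed between 0.30 and 0.39, with a highest adjusted p of 0.0147. Beside Tgfb2, Ltbp1 had the lower FPKM of the pair with siNC, without overlap, and with siSox9 their values overlapped.

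Both receptors were expressed, and of the pair Tgfbr2 was called and Tgfbr1 was not. Tgfbr2, the type II receptor that binds the ligand first, was at 42.9, 43.1 and 42.2 FPKM with siSox9 and at 37.1, 35.5 and 36.6 FPKM with siNC. All siSox9 libraries were higher, and the mean was 117% of that with siNC. The log2 fold change was 0.23 (SE 0.03, 95% CI 0.16 to 0.30; limma, adjusted p = 0.00177), and the highest adjusted p without any 1 library was 0.0127.

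Tgfbr1, the type I receptor kinase, was at 14.5, 14.6 and 14.7 FPKM with siSox9 and at 14.8, 14.9 and 14.6 FPKM with siNC. This was the narrowest spread of the 9 genes, with a coefficient of variation within groups of 0.688%. The log2 fold change was -0.02 (95% CI -0.08 to 0.05; limma, adjusted p = 0.717), so that a change as large as that of Tgfbr2 lies outside the interval. Its sign turned on TPM values and after centring on the median. The ratio of Tgfbr2 to Tgfbr1 was 2.96, 2.95 and 2.87 with siSox9 and 2.51, 2.39 and 2.50 with siNC, without overlap. Both values are scaled by merged exon length and not by the transcripts present. The ratio therefore serves to compare the groups and does not give the transcript level of 1 gene relative to the other.

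Smad3, the receptor-activated Smad that binds DNA directly, was at 58.3, 58.9 and 54.6 FPKM with siSox9 and at 49.1, 46.1 and 48.3 FPKM with siNC. The groups did not overlap, and the mean was 119.8% of that with siNC. On the log2 scale the change was 0.26 (SE 0.04, 95% CI 0.16 to 0.35; limma, adjusted p = 0.00372). The highest adjusted p without any 1 library was 0.0198.

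Smad7, the inhibitory Smad that blocks the type I receptor and is itself induced by TGF-beta, did not pass the test. It was at 28.5, 26.9 and 25.8 FPKM with siSox9 and at 24.1, 27.9 and 26.0 FPKM with siNC. The 2 groups overlapped, and the lowest and the second highest of the 6 values were both siNC libraries. Its log2 fold change was 0.06 (95% CI -0.08 to 0.20; limma, adjusted p = 0.517). The ratio of Smad3 to Smad7 was 2.12 ± 0.0696 (SD, n = 3) with siSox9 and 1.85 ± 0.192 with siNC, and the closest libraries of the 2 groups were at 2.05 and 2.04.

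**Figure D2:**
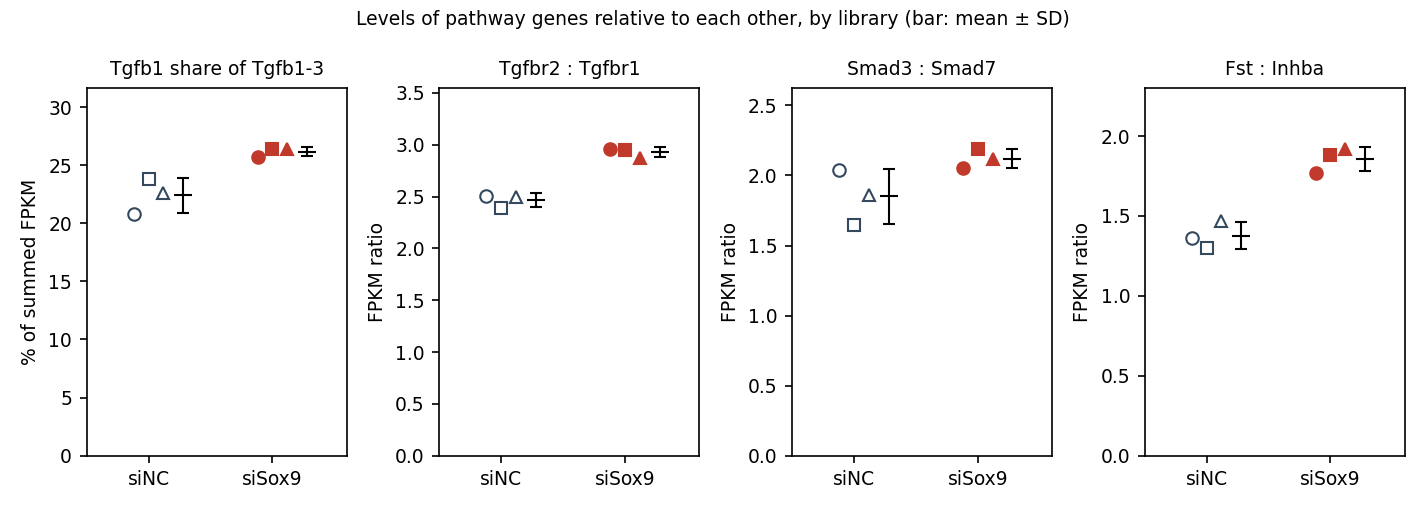
FPKM values of pathway genes set against each other in each library. Shown are the share of Tgfb1 in the summed FPKM of the 3 TGF-beta ligands (in percent) and 3 ratios of FPKM values. All axes start at 0, with siNC as open and siSox9 as filled symbols and the mean ± SD of each group (n = 3) beside them. The Tgfbr2 to Tgfbr1 ratio lies between 2.87 and 2.96 with siSox9 and between 2.39 and 2.51 with siNC.

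Within the groups, the lowest and highest values of several genes fell in the same libraries. Of the siSox9 libraries, replicate 3 held the lowest value of 8 of the 9 genes, all but Tgfbr1. Of the siNC libraries, replicate 1 held the highest value of 5 genes, namely Tgfb2, Tgfb3, Tgfbr2, Smad3 and Inhba. The coefficient of variation within groups ran from 0.688% for Tgfbr1 to 7.15% for Tgfb3, beside a median of 5.11% over all tested genes. Reads recovered from the FPKM values put between 775 and 1113 reads on Tgfb3 per library, for which counting alone gives a coefficient of variation of 3.59% at the low end. Inhba, with between 8133 and 9881 reads, would have 1.11% from counting and showed 5.76%.

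The exact permutation test over libraries (two-sided) gave p = 0.1 for Tgfb2, Tgfb3, Tgfbr2, Smad3 and Ltbp1, which is the smallest value that 3 libraries against 3 allow. It gave 0.2 for Tgfb1 and Tgfbr1, 0.5 for Smad7 and 0.7 for Inhba.

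The order of the FPKM values was nearly the same in both groups. With siNC, Inhba (57.5 FPKM) stood above Smad3 (47.8), Tgfbr2 (36.4), Smad7 (26.0), Tgfb2 (22.6), Ltbp1 (15.1), Tgfbr1 (14.8), Tgfb3 (12.3) and Tgfb1 (10.0). The neighbours Smad7 and Tgfb2 overlapped there, and so did Ltbp1 and Tgfbr1. With siSox9, Smad3 (57.3 FPKM) and Inhba (57.0) overlapped at the top, Ltbp1 (19.4) and Tgfb2 (19.1) overlapped in the middle, and Tgfb3 and Tgfb1, both at 10.5 FPKM, overlapped at the bottom.

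**Figure D3:**
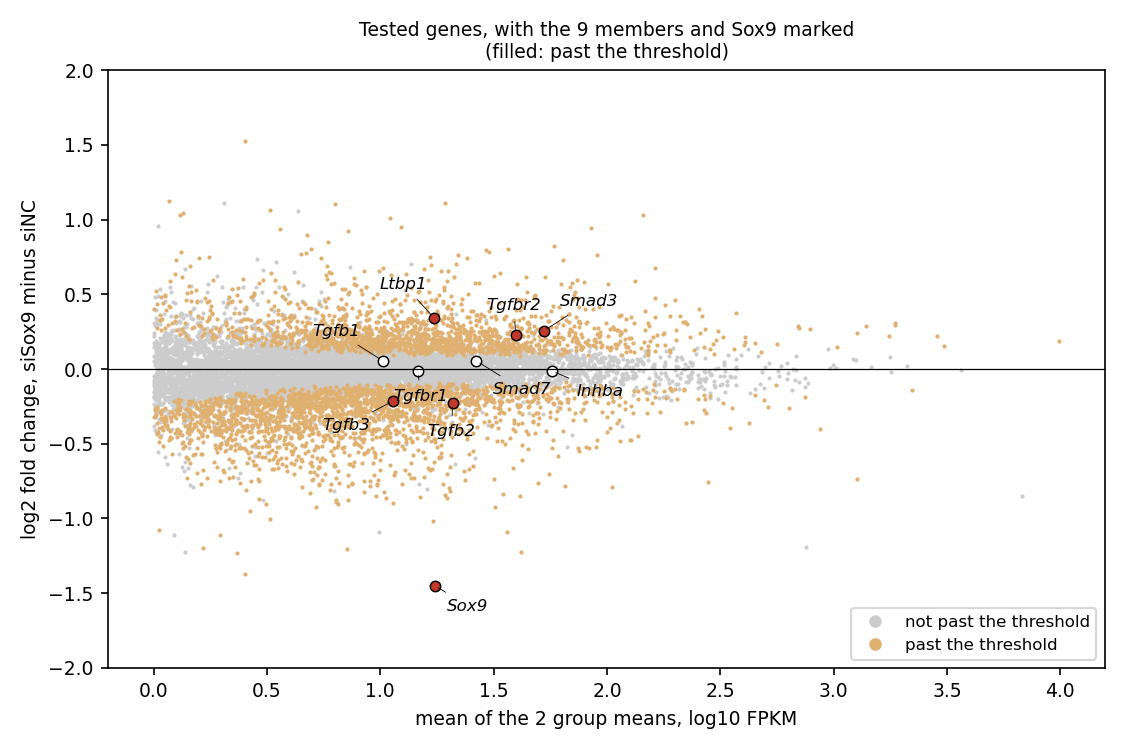
Log2 fold change (siSox9 minus siNC, on log2(FPKM + 1)) against the mean of the group means (log10 FPKM) for the 12009 tested genes, with genes past the threshold in tan and the others in grey. The 9 TGF-beta pathway genes and Sox9 are ringed, filled where called; the 9 lie between -0.23 and 0.34 and Sox9 at -1.45.

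The remaining genes of the pathway were described from a list of 60 genes ordered by role, of which 59 were found in the table and 43 passed the filter. Of these 43, 12 were called higher and 11 lower, which is 53.5% beside the 30.4% of all tested genes, and their median log2 fold change was 0.02. Among all genes that averaged 5 FPKM or more, 36.1% were called when tested alone, but the 43 include genes below that level, such as Snai2 and Gdf11. The list was chosen with earlier results of these data known. In 24 of the 43 genes the groups did not overlap, as they did not in 46.3% of all tested genes (5563 of 12009). The count of lower genes was unstable: it fell to 4 on TPM values and lay between 4 and 10 when 1 library was left out, lowest without siNC replicate 3. The number called higher lay between 9 and 13 under each alternative. Apart from Ldlrad4 and Fbn1, the called genes Acvr2a, Zfyve9, Smurf2, Nedd4l, Fst, Ltbp2, Thbs1, Junb, Bhlhe40, Cdkn1a and Fn1 share between 58 and 764 exon bases with another gene, on the opposite strand for all but Smurf2, and Ctgf, not called, shares 665 of 2861.

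**Figure D4:**
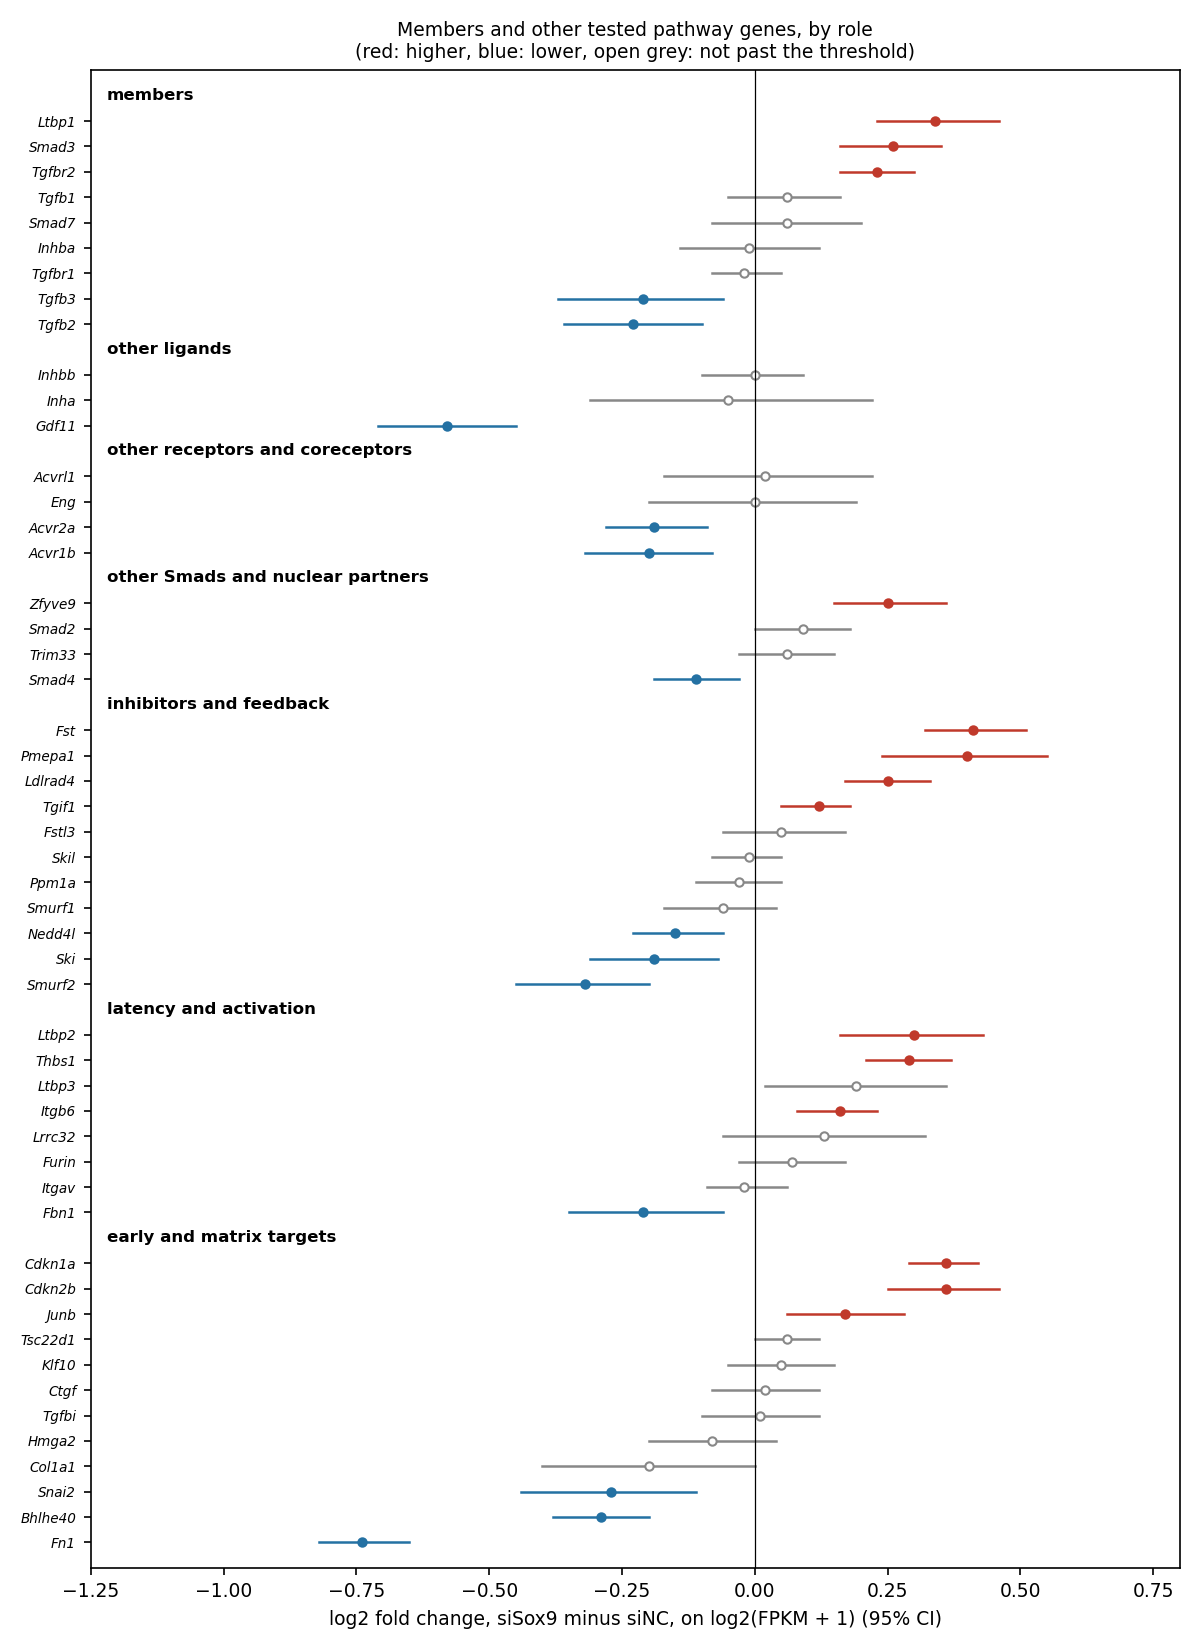
Log2 fold changes (siSox9 minus siNC, on log2(FPKM + 1)) with 95% confidence intervals for the 9 described genes and other tested pathway genes, grouped by role and sorted within each group. Red points passed the threshold and were higher with siSox9, blue points passed it and were lower, and open grey points did not pass; Fn1 at -0.74 and Gdf11 at -0.58 lie furthest to the left and Fst at 0.41 and Pmepa1 at 0.40 furthest to the right.

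Of 3 further ligands tested, 1 fell (33.3%, beside the 30.4% of all tested genes called). Gdf11, a ligand that signals through activin receptors, was at 3.27 ± 0.212 FPKM (SD, n = 3) with siSox9 and 5.38 ± 0.253 FPKM with siNC (log2 fold change -0.58; limma, adjusted p = 0.000457). Its fall was larger than that of any of the 9 genes, and it was called under all 14 alternatives that gave a value. Inhbb, the subunit of activin B and named here after its values were seen, was at 9.06 FPKM with siSox9 and 9.08 FPKM with siNC and was not called.

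Of 4 further receptors tested, 2 fell (50%, beside the 30.4% of all tested genes called). Acvr1b, the type I receptor for activin, changed by -0.20 on the log2 scale (limma, adjusted p = 0.026). Acvr2a, a type II receptor for activin, changed by -0.19 (adjusted p = 0.014). The call of Acvr1b was lost without siSox9 replicate 2 (0.0681), siSox9 replicate 3 (0.0774), siNC replicate 1 (0.0575) or siNC replicate 3 (0.079), and that of Acvr2a without siNC replicate 3 (0.0533). Over all 14 alternatives, Acvr1b was called in 7 and Acvr2a in 12. Tgfbr3, the coreceptor that presents TGF-beta 2 to the type II receptor, was below the filter at 0.553 FPKM with siSox9 and 0.466 FPKM with siNC.

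Among the Smads and their partners, Zfyve9 (SARA, which brings Smads to the receptor) rose, with a log2 fold change of 0.25 (limma, adjusted p = 0.00613), and it was called under all 15 alternatives. Smad2 was at 23.0, 23.5 and 23.8 FPKM with siSox9 and at 21.4, 21.4 and 23.1 FPKM with siNC, which overlapped (log2 fold change 0.09, adjusted p = 0.117). Smad4, the shared partner, changed by -0.11 (adjusted p = 0.0433). The call of Smad4 held in 3 of 15 alternatives and was lost without each of the 6 libraries in turn, with adjusted p between 0.0523 and 0.135. The ratio of Smad3 to Smad2 was 2.44 ± 0.131 (SD, n = 3) with siSox9 and 2.18 ± 0.103 with siNC, with the closest libraries both at 2.29.

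Of 11 tested inhibitors and feedback genes, 4 rose and 3 fell (63.6% called, beside the 30.4% of all tested genes). Fst encodes follistatin, which binds and neutralizes activins. It was at 106, 108 and 103 FPKM with siSox9 and at 82.3, 75.0 and 79.9 FPKM with siNC (log2 fold change 0.41; limma, adjusted p = 0.000583). Beside Inhba, which was not called, the ratio of Fst to Inhba was 1.86 ± 0.0798 (SD, n = 3) with siSox9 and 1.38 ± 0.0889 with siNC, without overlap.

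Pmepa1, a TGF-beta target that keeps Smads from the receptor, was at 95.1, 90.7 and 87.8 FPKM with siSox9 and at 76.2, 63.9 and 67.0 FPKM with siNC (log2 fold change 0.40; limma, adjusted p = 0.00446). Its relative Ldlrad4 rose by 0.25 on the log2 scale (adjusted p = 0.00233), and the calls of Fst, Pmepa1 and Ldlrad4 held under every alternative that gave a value. Of the 5371 exon bases of Ldlrad4, 2852 are shared with Fam210a and Mir7219 on the opposite strand, so its value is uncertain: reads from these genes cannot be told apart without the strand setting. Tgif1, a corepressor named here after its values were seen, completed the 4, at 0.12 (adjusted p = 0.0166). Its call was lost without siSox9 replicate 1 (0.0647), siSox9 replicate 2 (0.0609) or siNC replicate 3 (0.0646), and on TPM values (0.0754).

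The 3 that fell were Smurf2, a ubiquitin ligase for Smads and receptors, with a log2 fold change of -0.32 (limma, adjusted p = 0.00444), the corepressor Ski, with -0.19 (adjusted p = 0.0276), and the ubiquitin ligase Nedd4l, with -0.15 (adjusted p = 0.0223). Smurf2 was called under all 15 alternatives. The call of Ski was lost without siSox9 replicate 1 (0.0543), siSox9 replicate 3 (0.0722), siNC replicate 1 (0.0606) or siNC replicate 3 (0.087). That of Nedd4l was lost without siSox9 replicate 1 (0.0594), siSox9 replicate 2 (0.0806), siNC replicate 1 (0.0521) or siNC replicate 3 (0.0747). Ski was called in 8 of 15 alternatives and Nedd4l in 8 of 14. Skil, a corepressor and feedback target of the pathway, was at 24.3 ± 0.326 FPKM (SD, n = 3) and 24.6 ± 0.256 FPKM and was not called (log2 fold change -0.01, adjusted p = 0.732).

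Of 8 tested genes on the list of latency and activation, 3 rose and 1 fell (50% called, beside the 30.4% of all tested genes). Ltbp2, listed as a relative of Ltbp1, rose with a log2 fold change of 0.30 (limma, adjusted p = 0.00837). Whether its product binds latent TGF-beta was not tested. Thbs1, encoding thrombospondin 1, an activator of latent TGF-beta, was at 1547, 1551 and 1506 FPKM with siSox9 and at 1279.9, 1229.8 and 1264 FPKM with siNC (0.29, adjusted p = 0.00103). Itgb6, a subunit of the integrin that releases TGF-beta from latency in epithelia, rose by 0.16 (adjusted p = 0.0103).

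Fbn1, encoding the microfibril protein fibrillin 1, changed by -0.21 on the log2 scale (limma, adjusted p = 0.0385). It shares 2442 of its 12128 exon bases with Gm9913 on the opposite strand, which makes its value uncertain too. It was called in 4 of 14 alternatives, and its call was lost without siSox9 replicate 1 (0.0879), siSox9 replicate 2 (0.0857), siSox9 replicate 3 (0.0985), siNC replicate 1 (0.0832) or siNC replicate 3 (0.121). Thbs1 was not called with no filter (0.0638) or after quantile normalization (0.0797), and Ltbp2 was not called without moderation of the variance (0.0514). Ltbp3, named here after its values were seen and not called at 0.19 (adjusted p = 0.0828), was called without siNC replicate 1 (0.0397).

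Of 13 tested early and matrix targets, 4 rose, 3 fell and 6 did not pass the test (53.8% called, beside the 30.4% of all tested genes). The cell cycle inhibitors Cdkn2b (p15) and Cdkn1a (p21) each rose by 0.36 on the log2 scale, with adjusted p of 0.00127 and 0.000192 by limma.

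Cdkn1a was at 297, 294 and 292 FPKM with siSox9 and at 233, 228 and 228 FPKM with siNC. Junb, named here after its values were seen, also rose, at 0.17 (limma, adjusted p = 0.0315). Its call was lost without siSox9 replicate 1 (0.0988), siSox9 replicate 2 (0.0908), siNC replicate 2 (0.0888) or siNC replicate 3 (0.0917), and it was called in 7 of 15 alternatives. Ctgf, also called Ccn2, a matricellular target, was at 592 ± 7.00 FPKM (SD, n = 3) with siSox9 and 584 ± 29.1 FPKM with siNC and was not called (0.02, adjusted p = 0.76).

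Fn1, encoding fibronectin, had the largest change of the pathway genes described here. It was at 958, 965 and 937 FPKM with siSox9 and at 1642, 1542 and 1583 FPKM with siNC (log2 fold change -0.74; limma, adjusted p = 5.94e-05). Bhlhe40, a transcription factor gene induced by TGF-beta and by hypoxia, fell with -0.29 (adjusted p = 0.00159), and both were called under all 15 alternatives. Snai2, encoding the repressor SLUG, was low, at 1.36 FPKM with siSox9 and 1.85 FPKM with siNC (-0.27, adjusted p = 0.0255). The call of Snai2 was lost without siSox9 replicate 2 (0.0757), siSox9 replicate 3 (0.0741), siNC replicate 1 (0.0641) or siNC replicate 3 (0.0573), and it was called in 5 of 13 alternatives.

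Ltbp1, the member with the largest change, was compared with all tested genes over the 6 libraries. The 5 genes whose log2(FPKM + 1) followed it most closely were Dst, a cytoskeletal linker (Pearson r = 0.9963), Psmd11, a proteasome subunit (0.9951), Ano1, a chloride channel (0.9942), Lrp1, an endocytic receptor (0.9937), and Bmpr2, a receptor for bone morphogenetic proteins (0.9929). Bmpr2 was at 12.4, 12.8 and 12.3 FPKM with siSox9 and at 10.3, 9.86 and 10.6 FPKM with siNC. A total of 55 tested genes had r above 0.98, so such likeness was frequent, and the 6 points come from the same 2 groups of libraries.

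The labelled cell type was checked against marker genes. Of 12 markers of renal tubular epithelium, 10 passed the filter. Krt8 was the highest, at 2123 FPKM with siSox9 and 2089 FPKM with siNC. Slc34a1 and Aqp1, which mark the proximal tubule, were at most at 0.399 FPKM in any library. Lrp2 of the same list was higher, at 2.41 FPKM with siSox9 and 2.13 FPKM with siNC. Havcr1 (KIM1, an injury marker) was at 74.6 FPKM with siSox9 and 65.4 FPKM with siNC. No tubule segment was assigned from these genes. Of the 10 that passed, 2 were called, both higher, which is 20% beside the 30.4% of all tested genes. The summed level of the list ran from 3889 to 4051 FPKM with siSox9 and from 3717 to 3923 FPKM with siNC. The fibroblast and pericyte list was led by Acta2, at 686 FPKM with siSox9 and 727 FPKM with siNC, and summed to between 761 and 820.2 FPKM with siSox9 and between 833 and 871 FPKM with siNC. Its defining members Pdgfra, Pdgfrb, Col3a1 and Postn were below 1 FPKM. Of its 2 tested genes 1 was called, lower (50%, beside the 30.4% of all tested genes).

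Of 5 tested macrophage and leukocyte markers, 1 was called (20%, beside the 30.4% of all tested genes). This was Lyz2, at 83.4 FPKM with siSox9 and 71.9 FPKM with siNC (limma, adjusted p = 0.0175). The 4 others were not called, with log2 fold changes from -0.04 to 0.10. That list summed to between 114 and 126 FPKM with siSox9 and between 103 and 109.8 FPKM with siNC, most of it from Lyz2. The endothelial list, led by Cdh5 at 1.16 and 1.37 FPKM, summed to between 2.91 and 3.10 FPKM with siSox9 and between 3.22 and 4.12 FPKM with siNC, and its 1 tested gene was not called. Of the podocyte markers, Podxl fell from 11.6 FPKM with siNC to 7.48 FPKM with siSox9 (adjusted p = 0.000158) and Nphs1 was at 0 in every library. The fibroblast, macrophage and endothelial sums and the level of Podxl did not overlap between the groups, as was so for 46.3% of all tested genes. Without Acta2 and Vim, the fibroblast list summed to between 1.52 and 1.72 FPKM with siSox9 and between 1.80 and 2.07 FPKM with siNC. The part of these cell types in the changes of the TGF-beta pathway genes was not tested. In bulk RNA fewer cells of a type and less RNA per cell cannot be told apart.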

How the data were processed

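The authors deposited FPKM values per gene for 6 RNA-Seq libraries (3 siSox9, 3 siNC; Illumina NovaSeq). The submitters' processing notes name HISAT2 2.1.0, Bowtie2 2.2.3, TopHat2 and mm9 without saying which step used which; the gene positions in the table match GENCODE M21 on GRCm38, for 93.3% of the 30246 matched genes, and not mm9. The counter and its annotation are not given in the sources used here. Library columns carry the siRNA name and replicate number; si3 was read as siSox9, the only siRNA besides the control.

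Whole reads were recovered with M21 exon lengths: 93.3% to 93.4% of values per library were whole within 0.02 reads, and totals ran from 23893197 to 25725742 reads, so that 1 read on 1 kb of exon is worth 0.0389 to 0.0419 FPKM. Values of Ltbp1 were not whole, and its reads are approximate. Groups were compared with limma 3.58.1 in R 4.3.3 (lmFit, eBayes with a trend) on log2(FPKM + 1), for genes averaging 1 FPKM or more, with Benjamini-Hochberg adjustment over 12009 genes and no replicate block, since the study's statistics are unpaired. Single values were also tested by exact permutation. Alternatives were quantile normalization, median centring, TPM, a pseudocount of 0.1, a filter at 5 FPKM, no filter, a replicate block, a linear model without moderation of the variance, limma voom on recovered reads, and leaving out each library.

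On data simulated for this comparison, run on 10783 genes, limma called 48 of 50 genes lowered and 47 of 50 raised by 1 on the log2 scale. At 0.3 it called 27 of 50 lowered and 24 of 50 raised genes, with 10 of 10583 unchanged genes called. Replicates of a group differed by more than sampling noise. Members and lists were chosen with earlier results of these data known. Named in the text are all 9 members and Sox9; in each role list, up to 3 called genes per direction with the largest log2 fold change; Ccn2, Skil, Smad2, Smad4, Tgfbr3 and Acvr1b whatever their test; the 5 genes most correlated with the most changed member; and the highest gene of each marker list. Tgif1, Junb, Inhbb, Ltbp3, Lrp2, Havcr1 and the marker genes given as low or at 0 were named after their values were seen. Some genes of the lists enter the counts and are not reported here.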

Additional observations from a re-analysis of the deposited data

How the results depend on the processing

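Tgfbr2 and Smad3 were called under all 15 alternatives and Ltbp1 under all 14 that gave it a value (no voom value, since its reads were not whole); Tgfb1 and Smad7 kept their sign and were never called. The number of the 9 genes called was 5, and fell to 3 with no filter, on TPM values, in the unmoderated model and without siSox9 replicate 2 or 3 (range over left-out libraries 3 to 5). Tgfb2 was no longer called with no filter (-0.23), on TPM values (-0.21) or unmoderated (-0.23), and stayed between -0.26 and -0.18 with 1 library left out. Tgfb3 was no longer called with no filter (-0.21), on TPM (-0.20), median-centred (-0.19) or quantile-normalized values (-0.20) or unmoderated (-0.21), and stayed between -0.25 and -0.16 with 1 library left out. The uncalled Tgfbr1 changed sign on TPM (0.013), median-centred values (0.011) and voom (0.004), and Inhba likewise (0.016, 0.013 and 0.007) and between -0.05 and 0.033 with 1 library left out. The cause of these changes was not tested. The other pathway genes called lower, 11, were 6 with no filter, 7 with a minimum of 5 FPKM (fewer genes tested), 4 on TPM, 7 unmoderated and 4 to 10 with 1 library left out. Over all genes, 2118 lower calls became 1376 with a minimum of 5 FPKM and 1332 on TPM, and 1532 higher calls became 944 to 1565 with 1 library left out, lowest without siSox9 replicate 2. 

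Replicate numbers are shared by the groups, but same-numbered libraries did not deviate together (correlations 0.0649, -0.0504 and 0.00784), so the numbers were not taken as pairs. With a replicate block, 1373 genes were higher and 1889 lower, 5 of the 9 genes were called, and of the other pathway genes 12 were higher and 9 lower; Smad4 (adjusted p = 0.088) and Fbn1 (0.081) were not called there. Of 50 genes simulated at -0.3 on the log2 scale 27 were called, so small changes could be missed in that simulated setting. There 10583 of 10783 genes were unchanged, while 30.4% of tested genes were called in the data. The share missed in the simulation therefore cannot be carried over to a change like that of Tgfb2.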
